A study of Monodelphis domestica and Mus musculus with 26 samples.

Results

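Elongating spermatids of the mouse were taken from single-cell RNA sequencing of dissociated whole testes of adult male C57BL6/J mice, with no genetic change or treatment named. The data are 3 droplet libraries (10x Genomics Chromium, 3′ kit), called replicates 1 to 3; the strain is a sample label for replicates 1 and 2 and stands in the protocol text for replicate 3. The labels number the samples without saying that each came from its own animal. P-values therefore measure how much the changes within a sample differ between these samples. A barcode was kept with at least 1000 counts and 500 genes, and it was a member when Prm1, Prm2, Tnp1 and Tnp2 together held 3% of its counts or more and the somatic genes Cst9, Cst12, Dcn and Cyp17a1 together held fewer than 1.5 counts. This gave 7965 members of 25445 kept barcodes: 3384 of 8138 in replicate 1, 1996 of 7835 in replicate 2 and 2585 of 9472 in replicate 3. The share was 41.6%, 25.5% and 27.3% (31.4% ± 8.82, SD, n = 3). The study sequenced testis RNA of mouse and opossum, and only the mouse single cells are described here.

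Spermatids complete their differentiation without dividing. As they elongate, histones are removed from the DNA, transition proteins (Tnp1, Tnp2) take their place for a time, and protamines (Prm1, Prm2) then pack the sperm nucleus. Transcription stops during this exchange, while messenger RNAs made earlier are stored and translated later; the acrosome, the manchette that shapes the head, and the tail with its fibrous sheath, outer dense fibres and mitochondrial sheath are built in the same cells.

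The 4 rule genes stand in a small neighbourhood of the genome with 1 exception. In GRCm39, Tnp2 (chr16:10605747-10606526), Prm3 (chr16:10608369-10608778), Prm2 (chr16:10609236-10614045) and Prm1 (chr16:10614186-10623703) follow each other on the minus strand, and Tnp1 lies at chr1:73054221-73055208, also on the minus strand. The 150 bases before the start site of the canonical transcript are shown for both protamines because their shares define and order the members; both starts lie inside the longer spans annotated for their genes, no exon overlaps the Prm2 window, and exons of the antisense RNA Gm46563 overlap that of Prm1. Capitals mark TATAAA in either orientation, found at position -25 from the start of Prm2. Neither sequence holds TGACNTCA on either strand. Bases at or past the start site were not searched, so a copy there would be missed.
Prm1 (chr16:10614751-10614900, minus strand): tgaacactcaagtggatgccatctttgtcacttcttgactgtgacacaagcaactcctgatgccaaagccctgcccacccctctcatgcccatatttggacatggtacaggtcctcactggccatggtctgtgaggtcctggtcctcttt
Prm2 (chr16:10609976-10610125, minus strand): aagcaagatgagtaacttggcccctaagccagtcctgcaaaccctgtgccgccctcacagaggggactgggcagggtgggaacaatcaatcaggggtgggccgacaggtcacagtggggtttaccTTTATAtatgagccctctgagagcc

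Whether the rule picks elongating spermatids differed between libraries. The deposited matrices hold 10861 to 13451 barcodes and 45395185 to 65263953 counts per library. Members carried 1625, 4708 and 3759 counts and 1104, 1684 and 1426 genes (medians, replicates 1 to 3). The 4 genes held a median of 6.30%, 13.0% and 20.8% of a member's counts, against 1.17%, 0.354% and 0% in the other kept barcodes. Barcodes at or over the somatic limit, whose cell type was not determined, had medians of 4.31%, 1.24% and 0%, at median depths of 1882, 1745 and 2637 counts. Of those barcodes, 63.4% (943 of 1488), 20.7% (167 of 805) and 16.1% (88 of 547) were at 3% or more, and 15.3%, 4.35% and 10.4% at 10% or more. With 10 or more somatic counts (527, 418 and 254 barcodes) the medians were 2.34%, 0.562% and 0%; 41.4%, 6.94% and 10.6% of them were at 3% or more and 7.59%, 1.20% and 4.33% at 10% or more. In replicate 1 the 3% threshold thus lay below the median of the wider class and above that of the stricter one, and in replicates 2 and 3 above both.

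**Figure D1:**
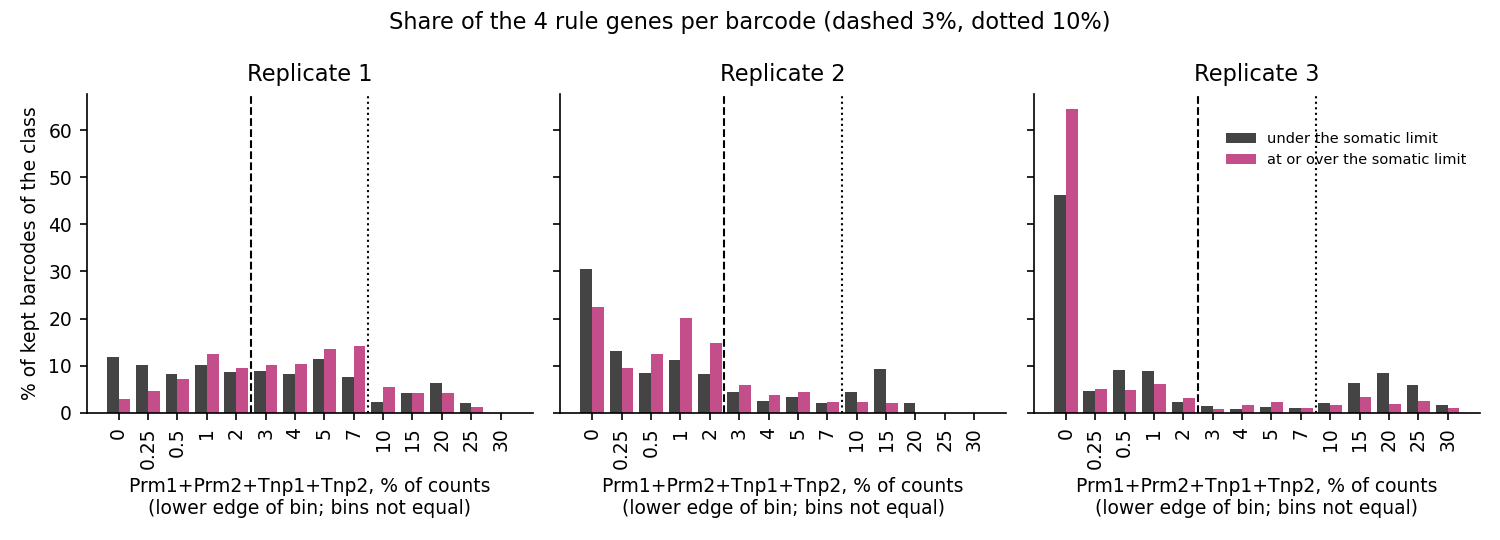
Percent of the kept barcodes of each class, by the share of counts in Prm1, Prm2, Tnp1 and Tnp2 (bins of unequal width, labelled by their lower edge), for barcodes under the somatic limit (dark) and at or over it (pink), 1 panel per replicate. In replicate 1 both classes spread over the 3% line (dashed), while in replicate 3 most barcodes at or over the limit sit in the lowest bin and a separate group under the limit lies above 10% (dotted).

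Members below a 10% share, a line drawn after the values were seen, made up most of replicate 1: 2393 of 3384 there, 882 of 1996 in replicate 2 and 411 of 2585 in replicate 3. Their median depth was 1350, 1403 and 3635 counts, against 8530, 5999 and 3764 counts at 10% or more. The 8 round spermatid markers (Acrv1, Spaca1, Izumo1, Catsper3, Catsper4, Lyzl1, Lyzl6, Spaca3) summed to 2442, 2166 and 3782 CPM (counts scaled to a common library total, computed without the 4 rule genes) below 10% and to 259, 212 and 253 CPM at 10% or more. Across the 12 spermatocyte markers, a list that includes Tbpl1, which early spermatids also use, the sums were 1652, 1899 and 977 CPM below 10% and 179, 151 and 168 CPM above. Erythroid markers (hemoglobins and Alas2) reached 756, 1331 and 4.01 CPM below 10% and 1.80, 1.75 and 38.8 CPM above. Kept non-members under the somatic limit with at least 3 counts of the 8 round spermatid markers had these markers at 2606, 1955 and 3916 CPM. Their spermatocyte markers were at 2807, 3743 and 2207 CPM. By the round spermatid and spermatocyte markers the barcodes at 10% or more fit the label better than those below it. The latter carry markers of earlier germ cells as well, with round spermatid markers near the level of the non-members chosen by them. Erythroid markers went the other way in replicate 3. All of these barcodes are called members here. The part of this in the results below was not tested.

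Some marker sets were at similar levels on both sides of the threshold and others differed. Members at 3 to 4% (585, 310 and 126 barcodes) had round spermatid markers at 2667, 2639 and 3910 CPM. Kept barcodes at 2 to 3% outside the members (580, 579 and 199) had them at 2524, 1997 and 3830 CPM. Macrophage markers were at 232, 58.6 and 6.95 CPM inside and 778, 167 and 162 CPM outside. Spermatocyte markers were at 1886, 2280 and 1107 CPM inside and 2368, 2674 and 1187 CPM outside. Erythroid markers were at 1987, 2960 and 13.0 CPM inside and 1397, 2129 and 897 CPM outside, so the direction differed between libraries. Mitochondrial transcripts were at 1.27%, 0.887% and 0.979% inside and 1.65%, 0.847% and 2.34% outside. Replicates 1 and 2 shared 198 barcode sequences, 9 of them in members of both; replicates 1 and 3 shared 2 and replicates 2 and 3 none. Doublets were not removed, and Scrublet scores were used only for an alternative. The automatic threshold of Scrublet marked 0.0123%, 0% and 1.72% of kept barcodes. The alternative left out the 8% of kept barcodes with the highest scores, which held 7.42%, 10.6% and 7.81% of the members.

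Members were ranked by Prm2 share within each library and split into 4 bins of equal size, here called Prm2 bins; the values of the 4 genes are a description, since they chose the members and the order. Prm2 held 1.35%, 1.40% and 2.51% of the counts in the lowest Prm2 bin and 9.06%, 7.99% and 10.8% in the highest. Prm1 went from 1.14%, 1.25% and 2.96% to 6.50%, 5.20% and 9.41%. Tnp1 stood at 0.539%, 0.468% and 1.60% in the lowest Prm2 bin, and at 2.65%, 1.87% and 1.75% in the highest. Tnp2 stood at 0.760%, 0.995% and 2.14% in the lowest and at 3.62%, 3.90% and 1.87% in the highest. In replicate 1 both were higher in each successive Prm2 bin, as was Tnp1 in replicate 2. Over single members Spearman's rho of Prm2 with Tnp1 was 0.492, 0.655 and 0.005, and with Tnp2 0.534, 0.636 and -0.089. In replicate 3, where most members were above 10%, Tnp1 was highest in the third Prm2 bin (4.44%) and Tnp2 as well (5.45%), before both were lower in the highest Prm2 bin (1.75% and 1.87%).

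Within the members at 10% or more, both transition proteins had a lower share in the highest Prm2 bin than in an earlier one in all 3 libraries. Over their own Prm2 bins Prm2 went from 5.25%, 4.81% and 4.55% to 13.1%, 9.25% and 11.2%. Tnp1 was highest in the third Prm2 bin in each library (3.76%, 1.98% and 4.64%) and stood at 0.881%, 1.74% and 1.16% in the highest. Tnp2 peaked in the second Prm2 bin in replicates 1 and 3 (5.09% and 5.50%) and in the third in replicate 2 (4.58%), and ended at 0.972%, 3.23% and 1.40%. The drop was small in replicate 2. Its highest Prm2 bin also reached a lower Prm2 share than the others, and whether this bears on the drop was not tested. Over these 991, 1114 and 2174 single members, Spearman's rho of Prm2 with Tnp1 was -0.162, 0.268 and -0.197, and with Tnp2 it was -0.474, 0.091 and -0.414; the shares have the same total in their denominator.

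**Figure D2:**
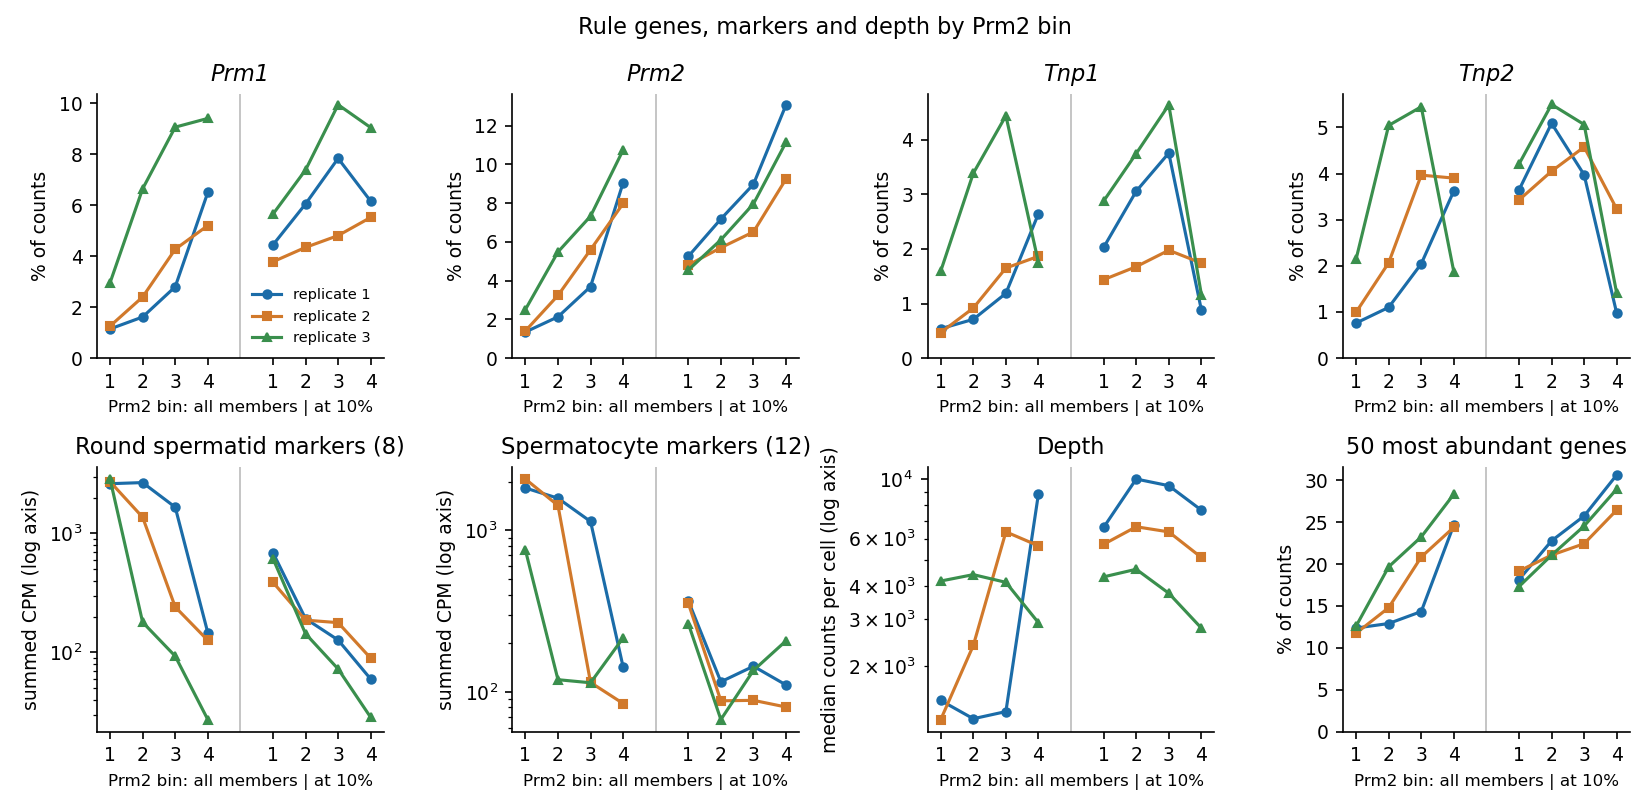
Top row: percent of counts held by each rule gene; bottom row: summed CPM of 8 round spermatid and 12 spermatocyte markers (log axes), median counts per cell (log axis), and percent of counts in the 50 most abundant genes. Each panel shows Prm2 bins over all members (left) and over members at 10% or more (right), one line per replicate; Tnp1 ends lower than its peak in all 3 lines of the right side, while round spermatid markers drop from 2620, 2725 and 2868 CPM to 146, 126 and 27.3 CPM on the left side.

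The 50 most abundant genes, rule genes aside, held 12.4%, 11.7% and 12.6% of the counts in the lowest Prm2 bin and 24.7%, 24.4% and 28.3% in the highest. For a count of genes at equal depth, the 4 rule genes were removed and each cell was then thinned to 800 counts. The median number of genes went from 632, 661 and 639.5 in the lowest Prm2 bin to 499.5, 498 and 466 in the highest. No cell was left with fewer than 800 counts. The rule genes, which take part in the order, held a median of 3.73%, 3.79% and 7.43% of the counts in the lowest Prm2 bin. In the highest they held 21.6%, 18.6% and 22.0%. Unthinned medians, with the rule genes, were 1050, 1061 and 2012 genes and 1969, 1650 and 1096 genes. The genes of the X chromosome held 1.74%, 1.98% and 1.91% of the counts in members against 0.901%, 0.630% and 1.03% in other kept cells. Mitochondrial transcripts were 1.17%, 0.624% and 0.441% of the counts in the lowest Prm2 bin and 0.0322%, 0.00601% and 0.129% in the highest.

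Members and all other kept cells were compared gene by gene. The rule chose the members on this contrast, so the values are a description with no test. The other kept cells include the barcodes at or over the somatic limit. Of these, 943, 167 and 88 held 3% or more of their counts in the 4 rule genes. Their part in the values of the other kept cells was not tested. Of 7828 genes with at least 20 CPM in either set, 388 (4.96%) were at least 4-fold higher in members in all 3 libraries and 179 (2.29%) at least 4-fold lower, with 10 CPM added to both sides. Without replicate 1 the number of genes 4-fold lower in members was 759; at a threshold of 10% it was 1623, and the higher count 383. Against the 6823 genes described for kept non-members with at least 3 counts of the 8 round spermatid markers, 349 genes (5.12%) were higher and 210 (3.08%) lower.

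Smcp, a cysteine-rich protein of the sperm mitochondrial capsule, was the most abundant transcript after the rule genes. It reached 10660, 10940 and 9579 CPM in members and 1491, 695 and 761 CPM in other kept cells. Hmgb4, an HMG-box protein of spermatids, stood at 5127, 6442 and 4498 CPM against 548, 203 and 278 CPM. Oaz3, the germ-cell ornithine decarboxylase antizyme, stood at 5953, 4931 and 1981 CPM against 814, 320 and 233 CPM. Replicate 3 was lowest among the members for each of these 3 genes.

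Named chromatin genes outside the rule were also higher in members. The spermatid linker histone H1f7 was at 1971, 3057 and 2717 CPM in members and 215, 85.7 and 126 CPM elsewhere. Tssk6, a kinase needed for histone removal, was at 1776, 1895 and 1708 CPM against 166, 60.5 and 51.5 CPM. H2al2a, a short H2A variant of late spermatids, was at 1376, 959 and 2052 CPM against 105, 22.4 and 52.2 CPM. Of the 18 described genes of the chromatin list, 6 were 4-fold higher and 0 lower, with a median log2 difference of 1.5 beside -1.05 over all described genes. By the same measure 6 of 16 kinases and phosphatases and 4 of 10 sex-linked genes were higher, beside 4.96% of all genes described. Other lists had fewer: 5 of 35 acrosome genes and 1 of 17 channel and signalling genes were higher. None did so among 26 axoneme genes, 23 RNA control genes and 59 genes with ribosomal protein symbols.

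Several highly abundant transcripts did not pass this measure. Ldhc, the testis lactate dehydrogenase, was at 4607, 5556 and 4163 CPM in members and 7889, 8730 and 4028 CPM in other kept cells. Meig1, needed for the manchette and flagellum, was at 6513, 6782 and 7156 CPM against 6025, 5664 and 4265 CPM. Among genes 4-fold lower, Tbpl1, a TBP-like transcription factor, was at 201, 224 and 51.6 CPM against 955, 1554 and 877 CPM. Rsph1, a radial spoke head protein, was at 1092, 804 and 121 CPM against 4439, 4886 and 2432 CPM, with the lowest value among members in replicate 3.

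**Figure D3:**
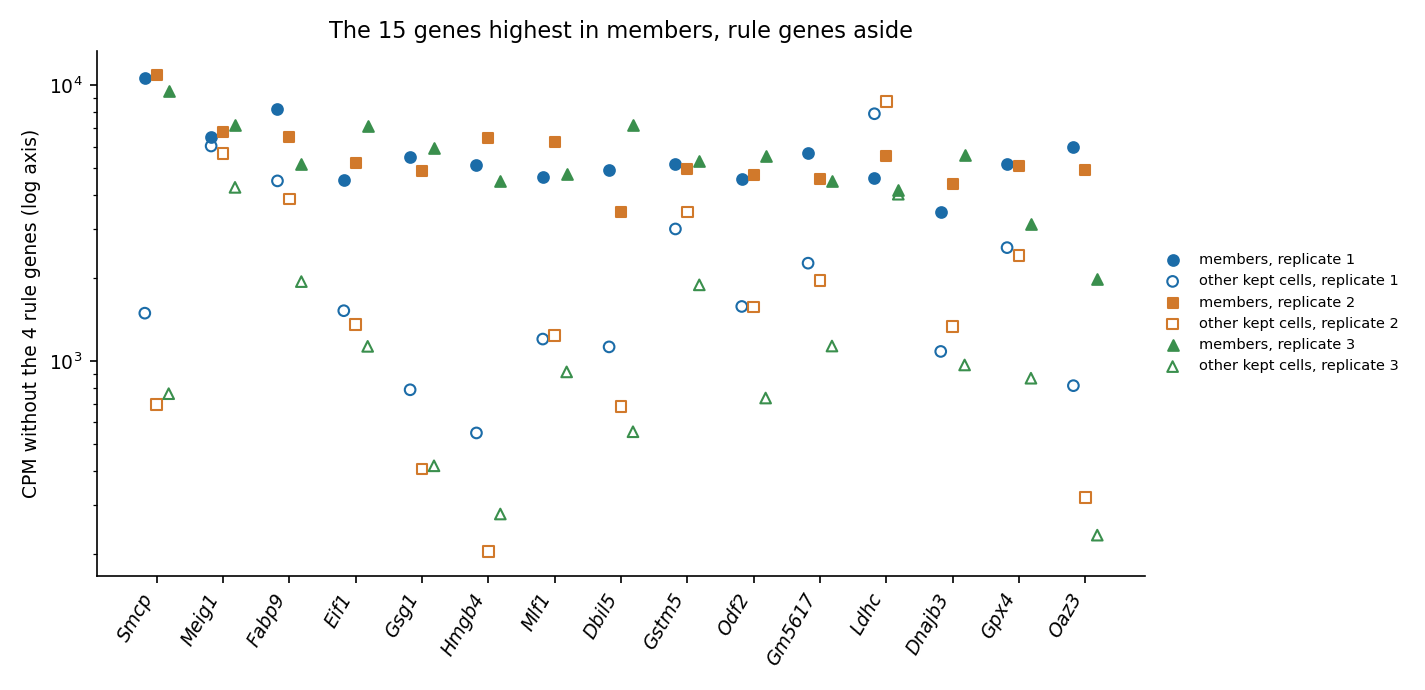
CPM (log axis, computed without the 4 rule genes) of the 15 genes with the highest mean in members, for members (filled) and all other kept cells (open), one symbol per replicate. Smcp, Gsg1, Hmgb4, Dbil5 and Oaz3 pass 4-fold in all 3 replicates, while for Ldhc the other kept cells sit above members in replicates 1 and 2.

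The genes 4-fold higher in members shared a short sequence before their start sites more often than other genes. The motif searched was TGACNTCA on either strand, the CRE-like form bound by factors of the CREB and CREM family, in the 150 bases before the canonical start site of protein-coding genes (GRCm39). It was in 59 of the 316 promoters found for the 388 genes (18.7%), in 7 of 178 for the 179 lower genes (3.93%), in 5.93% of the 6879 promoters of all described genes and in 5.14% of all 21502 promoters. Most of the difference came from TGACATCA, read as TGATGTCA on the other strand: 38 of 316 promoters (12%), 0 of 178, 2.04% and 2.03%. The palindrome TGACGTCA was in 1.27% of the promoters of higher genes and 2.04% of those described. These shares are descriptions of a list chosen by its levels, and a match is not evidence of binding. Positions were read for 37 of the 38 genes, as a chromosome was left out of this step but not of all promoters. The 33 copies of TGACATCA whose 30-base window lay inside the region were all within 100 bases of the start. Their median distance was 50 bases. Over all promoters 81.2% of 415 copies were within 100 bases. Genes that changed with Prm2 share, tested below, were not separated by the motif. TGACATCA was in 3.26% of the promoters of genes called higher and 3.30% of those called lower, beside 2.14% of those tested. For TGACNTCA the shares were 7.78%, 7.03% and 5.74%.

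The copies before the 4 most abundant of these 37 genes are shown as 30 bases on the strand of the gene, with the motif in capitals. The copy of Tnp1 is given beside them because it is the only rule gene with one in the bases searched. Gapdhs, the glyceraldehyde-3-phosphate dehydrogenase of the sperm tail, holds 2 copies, one in each orientation.
Smcp (chr3:92496338-92496367, minus strand, motif from -39): ggagagtattaTGATGTCAtaaaagagctg
Gsg1 (chr6:135231351-135231380, minus strand, motif from -45): gcctgctactgTGACATCAcagaatgaagt
Gapdhs (chr7:30443182-30443211, minus strand, motif from -94): cactccctctgTGATGTCActgggcaatgt
Gapdhs (chr7:30443164-30443193, minus strand, motif from -76): actgggcaatgTGACATCAtcagaagctca
Irgc1 (chr7:24135031-24135060, minus strand, motif from -68): gccctgccctcTGATGTCActatctcatta
Tnp1 (chr1:73055134-73055163, minus strand, motif from -97): gcaaaggttagTGATGTCAcaagagagctg
The Tnp1 copy lies before the canonical start but inside an exon of a longer annotated Tnp1 transcript.

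The change across the members was tested between the highest and the lowest Prm2 bin with edgeR (quasi-likelihood test on counts summed per library and Prm2 bin, library as a block, rule genes removed, Benjamini-Hochberg adjustment). All 4 Prm2 bins entered the fit, so the spread behind each p-value also came from the middle ones. These were not alike between libraries: the median rule gene share in the second Prm2 bin was 5.24%, 7.27% and 20.7%. The part of this in the calls was not tested. Of 11794 genes tested, 4651 (39.4%) passed an adjusted p of 0.05 with a log2 difference of at least 1: 2269 were higher (19.2%) and 2382 lower (20.2%) in the highest Prm2 bin. Scaling set this split: with TMM factors the median gene was at -0.68, and with plain library sizes it was at -2.49 and 504 genes were higher (4.12%) and 6614 lower (54%). With RLE factors 1980 were higher and 3178 lower, and DESeq2 gave 2194 and 4094. Among members at 10% or more, binned anew and scaled with TMM (an alternative added after seeing the data), edgeR called 1169 genes higher (16.2%) and 1898 lower (26.3%) of 7216; list counts given at the 10% threshold below are to be read against these shares. Log2 differences below are on the TMM scale and are to be read against -0.68, or against -0.30 at the 10% threshold. CPM values are not scaled by TMM.

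The number of calls depended on which libraries entered. Without replicate 1, 808 genes were called, without replicate 2, 522, and without replicate 3, 5405; of the 53 called genes named below, 49, 24 and 53 were still called, and all 53 kept their direction each time. Without the library block Spaca1, Spaca3, H3f3b, Tekt3, Tekt4, Efcab9, Sun5, Ddx25 and Ldha were not called (edgeR adjusted p from 0.0606 for Spaca1 to 0.206 for Tekt4), with the same direction. Of the 29 not called without replicate 2, 23 had a fitted log2 difference at least as large in size as with all 3 libraries. For Gapdhs it was 3.74 against 3.62 and for Smcp 3.38 against 3.24. Of the 4 not called without replicate 1, 1 had such a difference. Why these calls were lost was not tested. Round spermatid markers also differed between the lowest Prm2 bin (2620, 2725 and 2868 CPM) and the highest (146, 126 and 27.3 CPM). Spermatocyte markers went from 1830, 2080 and 756 CPM to 142, 84.6 and 216 CPM. Erythroid markers went from 1461 and 2321 CPM to 1.62 and 3.08 CPM in replicates 1 and 2. In replicate 3 they were at 42.5, 10.5, 34.1 and 38.7 CPM over the Prm2 bins, with no steady direction. Median depth in replicates 1 and 2 went from 1492 and 1266 counts to 8847 and 5646. The part of these marker and depth differences in the gene changes was not tested. The members at 10% or more, described at the end, hold less of the round spermatid and spermatocyte markers.

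**Figure D4:**
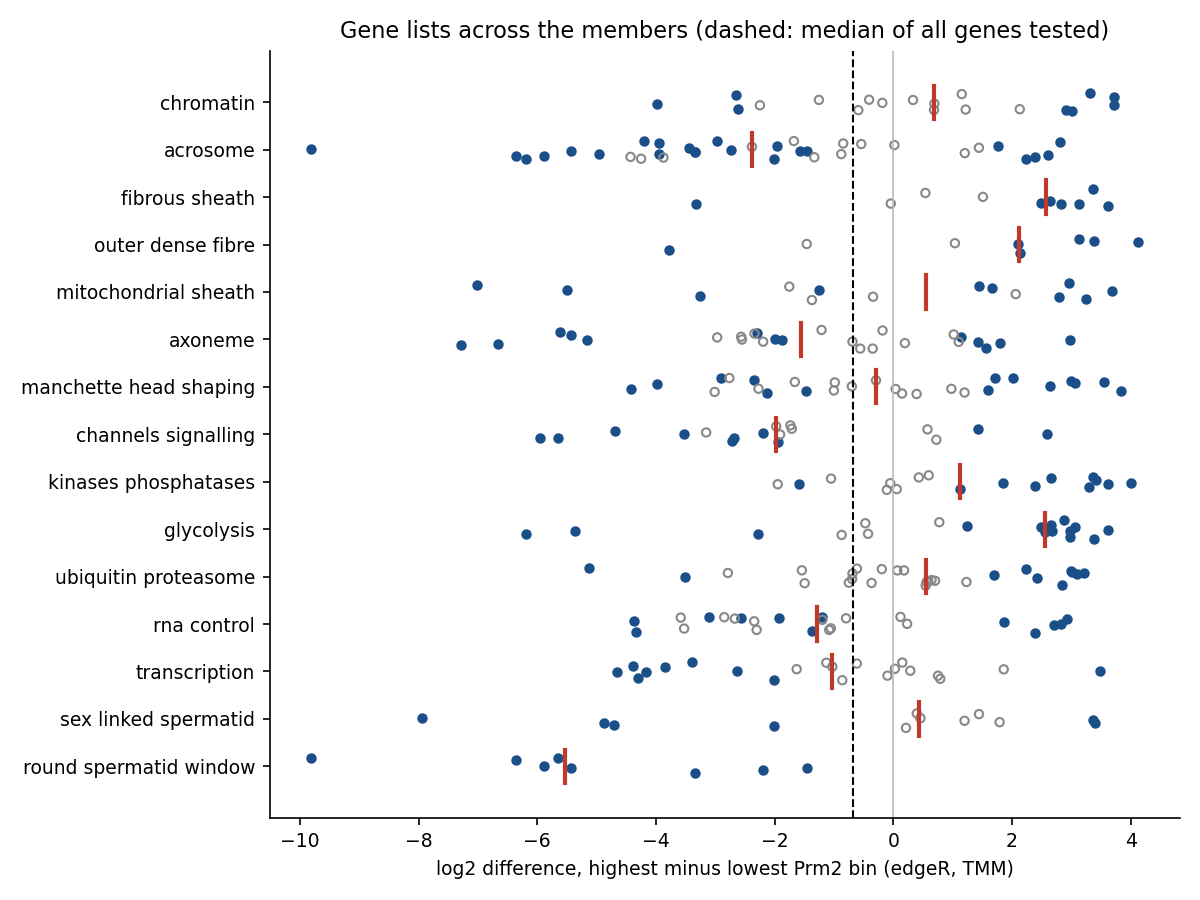
Log2 difference between the highest and the lowest Prm2 bin for each tested gene of 15 lists (edgeR, TMM), filled where called, open where not, with the median of each list as a red bar and the median of all genes as a dashed line at -0.68. Fibrous sheath, outer dense fibre and glycolysis genes lie mostly to the right, and acrosome, channel and round spermatid genes to the left.

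Among chromatin genes, 5 of 19 tested rose and 3 fell (median log2 difference 0.69), shares near the 19.2% and 20.2% of all genes tested. Without replicate 1 the counts were 4 and 0, without replicate 2, 2 and 0, without replicate 3, 8 and 3 of 18, with plain library sizes 4 and 7, and at the 10% threshold 3 and 5 of 15. Tssk6 rose from 597, 604 and 678 CPM to 2670, 2710 and 3278 CPM (log2 3.72 ± 0.55 SE, edgeR adjusted p = 0.0039). H2al2a rose from 398, 284 and 1024 CPM to 2120, 1422 and 3135 CPM (log2 3.72 ± 0.59). Prm3, whose gene lies between those of Tnp2 and Prm2, rose from 1209, 822 and 2108 CPM to 4745, 2798 and 5738 CPM (log2 3.31), and H1f7 from 863, 1107 and 1584 CPM to 2617, 3812 and 3001 CPM (log2 3.01). Hmgb4 was called higher (log2 2.90), but in replicate 3 it went from 2979 to 1836 CPM, its log2 difference was 0.96 with plain library sizes (edgeR adjusted p = 0.12), and among members at 10% or more it was -0.45. H1f7 lost its call at the 10% threshold (log2 0.42, edgeR adjusted p = 0.0956), as it did there with a linear trend over the bins (log2 0.43, edgeR adjusted p = 0.226). H3f3b, which encodes the replacement histone H3.3, fell from 2134, 1216 and 2183 CPM to 64.7, 67.7 and 32.5 CPM. At the 10% threshold it was called lower (log2 -1.47, edgeR adjusted p = 0.018). With a linear trend there it was not called (log2 -1.31, edgeR adjusted p = 0.106). The edgeR adjusted p was 0.125 without replicate 1 and 0.118 without replicate 2 for Hmgb4, 0.0612 and 0.0502 for H3f3b, and, without replicate 2, 0.0558 for Prm3 and 0.0682 for H1f7.

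Of 35 acrosome genes tested, 18 fell, 5 rose and 12 were not called, beside 20.2% lower and 19.2% higher over all genes (median -2.38); the counts were 9 and 1 without replicate 1, 6 and 0 without replicate 2, 26 and 0 with plain library sizes, where 54% of all genes fell, and 23 and 2 of 35 at the 10% threshold. Acrv1, a protein of the acrosomal matrix, was at 301, 374 and 523 CPM in the lowest Prm2 bin and at 7.44, 2.83 and 1.87 CPM in the highest (log2 -5.89 ± 1.05, edgeR adjusted p = 0.0043). Eqtn, an acrosomal membrane protein, went from 230, 256 and 227 CPM to 2.38, 2.10 and 0.897 CPM (log2 -6.20), and Spaca3, a lysozyme-like acrosomal protein, from 584, 488 and 446 CPM to 16.9, 9.57 and 1.80 CPM (log2 -5.44). In every library these 3 genes were lower in the highest Prm2 bin. For genes at a few CPM or less in any library there, here and below, the fitted log2 difference is no bound on the fold. It depends in part on the prior count and on how fractional counts are rounded. With counts rounded up it was much smaller in size for Spaca1, Cfap45 and Slxl1, whose values are given below. Crisp2, a protein of the acrosome and tail, was among the 5 that rose, from 2663, 2372 and 2211 CPM to 4980, 4573 and 6496 CPM (log2 2.61; edgeR adjusted p = 0.082 without replicate 2, and log2 0.86 with plain library sizes). The other 4 were Izumo2, Sppl2c, Actl9 and Spaca9, of which Spaca9 was lower with plain library sizes (log2 -0.084). The 8 round spermatid markers, 6 of which are in the acrosome list, all fell (median -5.54); 4 were called without replicate 1, 5 without replicate 2 and 6 without replicate 3.

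Counts in the 3 tail lists outside the axoneme are to be read against 19.2% higher and 20.2% lower over all genes, or 4.12% and 54% with plain library sizes. Of 10 fibrous sheath genes 6 rose and 1 fell (median 2.57; 3 and 1 without replicate 1, 0 and 0 without replicate 2, 4 and 2 with plain library sizes, 4 and 3 of 10 at the 10% threshold). Gapdhs rose from 1351, 1602 and 1440 CPM to 6017, 6961 and 5650 CPM (log2 3.62 ± 0.56, edgeR adjusted p = 0.0039). Akap4, the main scaffold of the sheath, rose from 700, 945 and 842 CPM to 2555, 3320 and 2957 CPM (log2 3.36). Ropn1l, a partner of the AKAP proteins, was the sheath gene that fell, from 3249, 3096 and 3723 CPM to 323, 157 and 29.7 CPM (log2 -3.32). Without replicate 2 the edgeR adjusted p was 0.0503 for Gapdhs and Akap4 and 0.0713 for Ropn1l.

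Outer dense fibre genes rose in 5 of 8 cases and fell in 1 (median 2.12; 3 and 0 without replicate 1, 1 and 1 without replicate 2, 3 and 2 with plain library sizes, 5 and 3 of 8 at the 10% threshold). Odf2, a core protein of the fibres, went from 2178, 2367 and 2720 CPM to 6491, 6544 and 9675 CPM (log2 3.13), and Oaz3 from 2430, 1935 and 1068 CPM to 8811, 7388 and 3760 CPM (log2 3.39). Odf3b rose from 17.7, 20.9 and 68.0 CPM to 181, 135 and 142 CPM (log2 4.13). Without replicate 2 the edgeR adjusted p was 0.061 for Odf2 and 0.0523 for Oaz3. In all 3 libraries the highest Prm2 bin lay above the lowest for each of these genes.

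The mitochondrial sheath list split. Of 14 genes 6 rose and 4 fell (median 0.55; 3 and 1 without replicate 1, 1 and 1 without replicate 2, 4 and 5 with plain library sizes, where the median was -1.15, and 3 and 5 of 14 at the 10% threshold). Smcp rose from 5106, 5057 and 4433 CPM to 15274, 16076 and 17944 CPM (log2 3.24 ± 0.55, edgeR adjusted p = 0.0040). Gpx4, a selenoenzyme that becomes a structural part of the sheath, rose from 3062, 2906 and 1734 CPM to 6957, 6455 and 4993 CPM (log2 2.79). Spata18 rose from 394, 522 and 679 CPM to 1935, 2429 and 2487 CPM (log2 3.69), and Vdac3, a channel of the outer mitochondrial membrane, fell from 485, 576 and 321 CPM to 37.6, 13.6 and 9.14 CPM (log2 -3.26). Without replicate 2 the edgeR adjusted p was 0.0644 for Smcp, 0.0718 for Gpx4 and 0.0618 for Vdac3; with counts rounded up the log2 difference of Vdac3 was -0.97, under the fold limit.

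Of 26 axoneme genes, the microtubule core of the tail, 8 fell and 5 rose, beside 20.2% and 19.2% of all genes tested (median -1.55; 2 and 1 without replicate 1, 4 and 0 without replicate 2, 13 and 5 without replicate 3, 14 and 1 with plain library sizes, where 54% of all genes fell, and 7 and 4 of 21 at the 10% threshold). The rising share was near that of all genes. The tektins Tekt3 and Tekt4, filament proteins of the doublet microtubules, went from 238, 278 and 79.5 CPM to 3.45, 0.411 and 0.152 CPM and from 628, 649 and 231 CPM to 42.1, 10.05 and 0 CPM. Tcp11 rose from 1851, 1854 and 1284 CPM to 4688, 4631 and 4368 CPM (log2 2.97; edgeR adjusted p = 0.0609 without replicate 2). Replicate 3 had the lowest tektin values in both Prm2 bins.

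Genes of the manchette and head shape rose in 8 and fell in 6 of 27 cases, beside 19.2% and 20.2% of all genes (median -0.29; 5 and 1 without replicate 1, 2 and 1 without replicate 2, 4 and 16 with plain library sizes, where 54% of all genes fell, and 5 and 7 of 24 at the 10% threshold). Spem1, needed to shed the cytoplasm of the spermatid, rose from 282, 292 and 255 CPM to 1469, 1579 and 1065 CPM (log2 3.83 ± 0.51, edgeR adjusted p = 0.0039). Its neighbour in name, Spem2, rose from 261, 248 and 161 CPM to 1099, 1096 and 574 CPM (log2 3.55). Spata6, a protein of the neck region, rose from 1253, 1429 and 1433 CPM to 3818, 4529 and 3323 CPM (log2 3.06), and Sun5, an anchor between tail and nucleus, fell from 261, 249 and 131 CPM to 20.7, 18.3 and 2.32 CPM (log2 -2.91). The edgeR adjusted p without replicate 2 was 0.0636 for Spata6 and 0.0534 for Sun5.

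Of 17 calcium channel and membrane signalling genes 8 fell and 2 rose, beside 20.2% lower and 19.2% higher over all genes (median -1.97; 1 and 0 without replicate 1, 3 and 0 without replicate 2, 11 and 0 with plain library sizes, where 54% of all genes fell, and 7 and 0 of 14 at the 10% threshold). Efcab9, a calcium sensor of the CatSper channel, went from 546, 513 and 323 CPM to 21.9, 15.7 and 0.299 CPM (log2 -4.69 ± 1.00, edgeR adjusted p = 0.0074). Atp1a4, the sodium pump subunit of sperm, rose from 199, 230 and 211 CPM to 519, 546 and 274 CPM (log2 2.60). Its edgeR adjusted p was 0.0681 without replicate 1 and 0.0709 without replicate 2, and its log2 difference was under the fold limit with plain library sizes (0.75) and at the 10% threshold (0.44).

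Kinases and phosphatases rose in 9 and fell in 1 of 17 cases, beside 19.2% higher and 20.2% lower over all genes (median 1.13; 5 and 0 without replicate 1, 2 and 0 without replicate 2, 8 and 2 without replicate 3, 5 and 6 with plain library sizes, where the median was -0.67 and 4.12% of all genes rose and 54% fell, and 4 and 2 of 17 at the 10% threshold). Prkar2a, a regulatory subunit of protein kinase A, rose from 173, 229 and 449 CPM to 1113, 1273 and 1948 CPM (log2 4.00 ± 0.57, edgeR adjusted p = 0.0039). Tssk3, a testis-specific kinase, rose from 340, 317 and 407 CPM to 1362, 1044 and 1333 CPM (log2 3.36). Its relative Tssk2 was called higher (log2 2.38) and, like Hmgb4, went down in replicate 3, from 1325 to 1169 CPM; its log2 difference was 0.51 with plain library sizes (edgeR adjusted p = 0.206) and -0.058 among members at 10% or more. The edgeR adjusted p of Tssk2 was 0.106 without replicate 1 and 0.129 without replicate 2. Gsg1, a germ-cell membrane protein placed in this list, rose from 1915, 1739 and 2671 CPM to 8345, 7449 and 10949 CPM (log2 3.62; edgeR adjusted p = 0.0516 without replicate 2).

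Of 19 glycolysis genes 12 rose and 3 fell, beside 19.2% higher and 20.2% lower over all genes (median 2.55; 10 and 1 without replicate 1, 0 and 0 without replicate 2, 6 and 5 with plain library sizes, where 4.12% of all genes rose and 54% fell, and 10 and 2 of 16 at the 10% threshold). Pgk2, the testis phosphoglycerate kinase, rose from 613, 688 and 742 CPM to 1700, 1974 and 2407 CPM (log2 3.07 ± 0.49, edgeR adjusted p = 0.0039). Hk1, hexokinase, rose from 406, 403 and 354 CPM to 1069, 986 and 1186 CPM (log2 2.98). The lactate dehydrogenases did not follow: Ldha fell from 742, 858 and 335 CPM to 119, 59.2 and 7.78 CPM (log2 -2.27), and Ldhc went from 7229, 7652 and 5119 CPM to 2262, 2347 and 799 CPM, which on the TMM scale missed the threshold (log2 -0.43, edgeR adjusted p = 0.485) and with plain library sizes was a fall (log2 -2.27, edgeR adjusted p = 0.00346). Without replicate 2 the edgeR adjusted p was 0.0543 for Pgk2, 0.0518 for Hk1 and 0.148 for Ldha; with counts rounded up the log2 difference of Ldha was -0.92, under the fold limit. Ldhc was called lower at the 10% threshold as well (log2 -2.05, edgeR adjusted p = 0.00015), and also at a 5% threshold, with at least 2000 counts per cell and after thinning to 800 counts.

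Counts for protein turnover and RNA storage are to be read against 19.2% higher and 20.2% lower over all genes, or 4.12% and 54% with plain library sizes. In the ubiquitin and proteasome list 8 of 27 rose and 2 fell (median 0.55; 5 and 0 without replicate 1, 0 and 0 without replicate 2, 5 and 13 with plain library sizes, where the median was -1.38, and 7 and 7 of 24 at the 10% threshold). Ube2j1, a ubiquitin-conjugating enzyme of the endoplasmic reticulum, rose from 598, 756 and 756 CPM to 2195, 2492 and 1887 CPM (log2 3.22), and Rnf138, a ubiquitin ligase, from 1017, 1087 and 1609 CPM to 2439, 2894 and 3969 CPM (log2 2.84). In the RNA list 7 of 24 fell and 5 rose, the rising share near that of all genes (median -1.29; 2 and 3 without replicate 1, 0 and 0 without replicate 2, 13 and 2 with plain library sizes, 10 and 3 of 21 at the 10% threshold). Ybx1, a Y-box RNA-binding protein, fell from 1856, 2033 and 2509 CPM to 208, 48.9 and 34.6 CPM (log2 -3.11), and Ddx25, a testis RNA helicase, from 472, 645 and 171 CPM to 38.1, 8.41 and 2.14 CPM (log2 -4.37). Fxr1, a translational regulator of late spermatids, rose from 453, 568 and 973 CPM to 979, 1351 and 2295 CPM (log2 2.70, or 0.93 with plain library sizes, under the fold limit). Ybx1 was not called with 3 Prm2 bins in place of 4 (edgeR adjusted p = 0.0502) or at a 2% threshold (edgeR adjusted p = 0.0617). Without replicate 2 none of these 5 passed, with edgeR adjusted p of 0.0534 for Ube2j1, 0.0675 for Rnf138, 0.114 for Ybx1, 0.0502 for Ddx25 and 0.0667 for Fxr1.

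Transcription factors fell in 8 of 21 cases and rose in 1, beside 20.2% lower and 19.2% higher over all genes (median -1.03; 2 and 1 without replicate 1, 1 and 0 without replicate 2, 8 and 2 without replicate 3, 17 and 1 with plain library sizes, where 54% of all genes fell, and 7 and 1 of 16 at the 10% threshold). The 1 that rose was Spz1, a basic helix-loop-helix leucine zipper protein, from 1137, 1322 and 1398 CPM to 4436, 5123 and 5451 CPM (log2 3.48; edgeR adjusted p = 0.0503 without replicate 2). Gtf2a1l, a germ-cell TFIIA subunit, fell from 278, 346 and 190 CPM to 12.3, 10.1 and 1.55 CPM (log2 -3.84 ± 0.59, edgeR adjusted p = 0.0039). Sex-linked spermatid genes rose in 2 and fell in 4 of 12 cases (median 0.43, or -1.51 with plain library sizes, where 2 rose and 5 fell; 2 and 2 without replicate 1, 1 and 2 without replicate 2, 5 and 3 without replicate 3, and 2 and 8 of 11 at the 10% threshold). Tsga8, an X-linked gene of round spermatids, fell from 872, 726 and 1036 CPM to 31.6, 11.8 and 6.01 CPM (log2 -4.88), while Actrt1, an X-linked actin-related protein, rose from 32.0, 48.5 and 34.95 CPM to 136, 181 and 91.1 CPM (log2 3.39). Counts of sex-linked and ribosomal genes are to be read against 19.2% higher and 20.2% lower over all genes. Genes with ribosomal protein symbols, a list by prefix that also holds the kinases Rps6ka5 and Rps6ka6, rose in 32 and fell in 8 of 62 cases (median 1.15; 8 and 2 without replicate 1, 0 and 0 without replicate 2, 23 and 12 of 53 at the 10% threshold), and with plain library sizes 1 rose and 23 fell, where 54% of all genes fell and the list median was -0.63 against -2.49 over all genes. Rpl41 rose from 1200, 658 and 897 CPM to 2377, 1415 and 3513 CPM (log2 2.80; edgeR adjusted p = 0.0651 without replicate 2).

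The 12 largest increases included Tmod4, a tropomodulin, from 15.6, 18.7 and 15.6 CPM to 175, 166 and 116 CPM (log2 4.82 ± 0.77, edgeR adjusted p = 0.0039). Nudt16l2, a Nudix family gene, rose from 163, 182 and 339 CPM to 1395, 1276 and 2017 CPM (log2 4.40). Acte1, an actin-like gene, rose from 156, 160 and 219 CPM to 1142, 1113 and 1270 CPM (log2 4.29). Car2, carbonic anhydrase 2, rose from 188, 261 and 334 CPM to 1393, 1566 and 2179 CPM (log2 4.29). At the 10% threshold the log2 difference was smaller: 1.5 for Tmod4, 2.0 for Nudt16l2, 1.9 for Acte1 and 1.9 for Car2. The largest decreases included Spaca1, an acrosomal membrane protein (586, 686 and 654 CPM to 4.599, 0.0699 and 0.189 CPM), Cfap45 of the axoneme (393, 359 and 224 CPM to 2.05, 0 and 0 CPM) and the X-linked Slxl1 (398, 344 and 259 CPM to 1.63, 2.37 and 0 CPM). These 3 have libraries at or near 0, so their log2 differences (-9.81, -9.13 and -7.95) are no bound on the fold. With counts rounded up they were -2.65, -1.60 and -1.91. All 7 were called without each replicate in turn.

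In the members at 10% or more, round spermatid markers went from 690, 389 and 616 CPM in the lowest of their own Prm2 bins to 59.7, 89.4 and 28.4 CPM in the highest, and spermatocyte markers from 366, 354 and 265 CPM to 110, 80.5 and 207 CPM. The part of this shift in the gene values below was not tested. The subset was set after the values were seen, so its genes are described by fold and level. Of 4243 genes with at least 20 CPM in the highest or lowest of its own Prm2 bins, 9 (0.212%) were at least 2-fold higher in the highest Prm2 bin in all 3 libraries and 868 (20.5%) at least 2-fold lower, with 10 CPM added; the median log2 difference was -0.72, -0.42 and -0.59. These are plain CPM; with TMM scaling and the adjusted p as the criterion, edgeR called 16.2% higher and 26.3% lower of 7216, as given above. More genes were lower than higher by both counts, which differ in scale, criterion and genes. The 9, chosen by that rule alone, were Spata3, Spem1, Nt5c1b, Nudt16l2, Tex13a, Gm10076, Gm614, 4930471G03Rik and 4930570D08Rik. Spata3, a testis protein, went from 2263, 2051 and 1775 CPM to 6646, 4366 and 4929 CPM, and Nt5c1b, a cytosolic nucleotidase, from 890, 1039 and 390 CPM to 2226, 2095 and 970 CPM. Mean levels were highest in the lowest Prm2 bin for 2268 genes, in the second for 478, in the third for 412 and in the highest for 1085.

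Falls within this subset were steep for some genes that had still been abundant at its start, and 25 genes were at least 8-fold lower in all 3 libraries. Ybx1 went from 1467, 1562 and 2987 CPM in the lowest Prm2 bin through 168, 850 and 1563 CPM and 19.9, 114 and 138 CPM to 5.53, 15.9 and 17.6 CPM. Cdyl, a chromodomain protein that acts on histones, went from 801, 1157 and 1095 CPM to 35.2, 120 and 19.98 CPM. Tssk1, a testis-specific kinase, went from 1106, 1255 and 911 CPM to 44.9, 130 and 2.09 CPM. Tssk2 fell less, from 2335, 2735 and 2115 CPM to 1354, 2042 and 1113 CPM. Tssk6 rose, from 1600, 1917 and 1373 CPM to 3759, 3078 and 3423 CPM. Ropn1l and Odf3 fell as well, to 135, 63.9 and 19.9 CPM and to 12.2, 52.5 and 3.17 CPM.

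Other genes were high in the middle of the order. Hmgb4 stood at 9251, 9354 and 6489 CPM in the third Prm2 bin and at 1775, 7211 and 1250 CPM in the highest. The linker histones parted: H1f9 went from 3757, 3576 and 3723 CPM to 281, 1029 and 226 CPM, and H1f7 from 2624, 3370 and 2524 CPM to 1394, 3387 and 2860 CPM. Of the 9 described sex-linked genes 7 were 2-fold lower, among them Cypt1 (1841, 2143 and 1604 CPM to 97.7, 588 and 51.8 CPM), a cysteine-rich perinuclear theca gene. Smcp went from 8515, 10280 and 7075 CPM to 21770, 18400 and 18660 CPM. Replicate 2 had the smallest fall in Hmgb4, H1f9 and Cypt1, the library in which Tnp1 and Tnp2 had also dropped least.

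**Figure D5:**
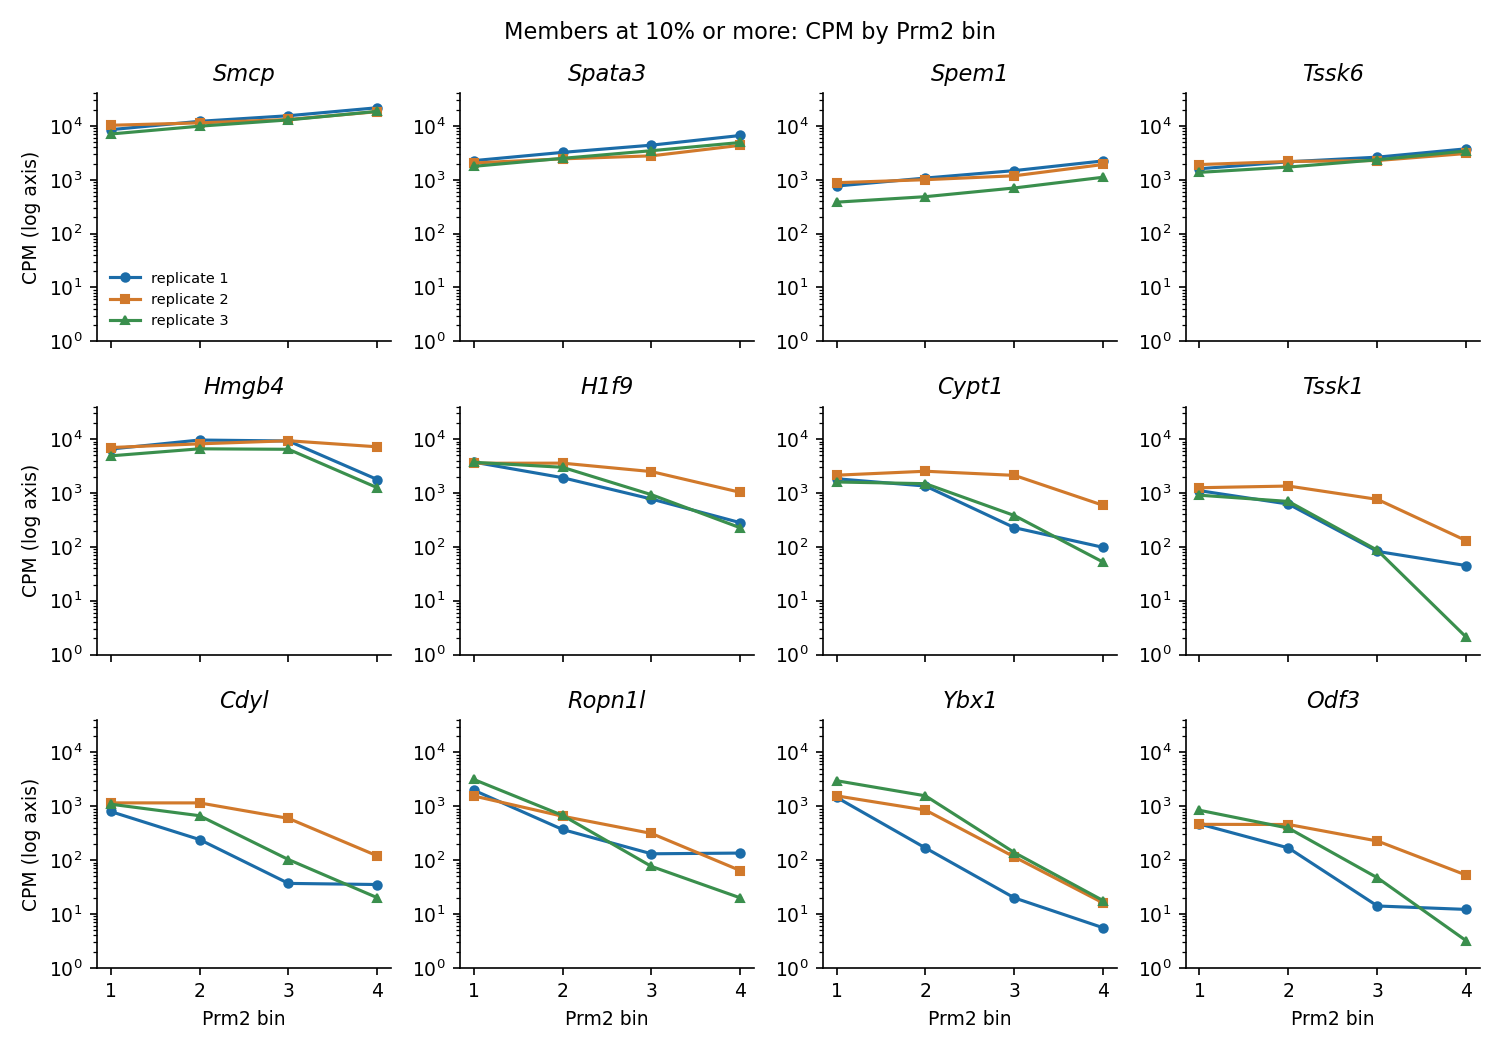
CPM (log axis) of 12 genes over the Prm2 bins in members at 10% or more, one line per replicate. Smcp, Spata3, Spem1 and Tssk6 end highest in all 3 replicates, Hmgb4 drops in the highest Prm2 bin, and Ybx1 falls to 5.53, 15.9 and 17.6 CPM.

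By list, 20 of the 29 described acrosome genes were 2-fold lower in the highest Prm2 bin of this subset, 6 of 13 transcription factors, 5 of 19 axoneme genes, 4 of 14 chromatin genes, 3 of 8 outer dense fibre genes, 7 of 9 sex-linked genes, 2 of 10 fibrous sheath genes and 2 of 14 glycolysis genes, beside 20.5% of all genes described. The median log2 difference, averaged over libraries, was -1.81 for the acrosome, -2.50 for sex-linked genes, 0.19 for the fibrous sheath, 0.46 for the outer dense fibres and 0.65 for glycolysis, beside -0.66 for all genes described. Spem1, of the manchette list, was the only listed gene that was 2-fold higher in all 3 libraries.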

How the data were processed

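Testis single-cell RNA was counted in 3 mouse libraries. The deposited matrices hold estimated counts per gene and barcode that need not be whole, per the file contents; the submitters' processing notes name Cell Ranger 6.0.1 and the builds GRCm39 and mm39, and the step that made fractional values and any barcode filter are not given in the sources used here. Fractional values leave depth and counting error approximate. Members and gene lists were chosen with earlier results of these data known. Counts were summed per library and Prm2 bin (4 per library, by Prm2 share), rounded to whole numbers, filtered with filterByExpr and tested with edgeR 4.0.16 (R 4.3.3) after removing the 4 rule genes; the code was tested on simulated data. Members against other kept cells were described in CPM with 10 CPM added, and the promoter search used the GENCODE annotation of GRCm39, which held 31966 of 32532 features. Named genes were the 12 largest increases and decreases with Prm2 share, the 15 most abundant in members, the 10 largest folds over other cells and, per list, the 4 most abundant and any called gene; the text gives a subset of these, chosen with their values known, and other genes it names were chosen after their values were seen. Alternatives were DESeq2 1.42.0, other scaling, filters, thresholds and left-out libraries. Scrublet ran in scanpy 1.11.5.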

Additional observations from a re-analysis of the deposited data

How the results depend on the processing

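The number of genes changed with Prm2 share (4651) was 1567 without the replicate block, 7110 with Prm2 bins over pooled members, 7118 with plain library sizes that include the rule genes, and 522 to 5405 with 1 replicate left out. At a 10% threshold, chosen after seeing the data, it was 3067, or 3042 as a linear trend, and members were 16.4% of kept cells. There Hmgb4 (log2 -0.45, trend -0.20) and Tssk2 (log2 -0.058, trend -0.16) were not called. Both had a negative sign, beside a median gene at -0.30 (trend -0.29) in that fit, and the cause was not tested. Genes 4-fold higher in members numbered 244 with counts rounded up and 676 with 1 CPM added. The genes 4-fold lower in members (179) numbered 56 at a 2% threshold, 793 at 5%, 1623 at 10%, 863 with at least 2000 counts, 411 without the highest doublet scores, 20 with counts rounded up, 1279 with 1 CPM added, 368 with CPM over all genes, and 187 to 759 with 1 replicate left out. Over the 54 genes with full values, 1012 alternative values kept direction and side of the threshold, 56 lost the call and 6 gained one. The other 4, those of Hmgb4 and Tssk2 at the 10% threshold, took the opposite sign and were not called. Only 3 libraries and fractional counts limit the precision.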
